A study of Mus musculus with 6 samples.

Results

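The TNF receptor superfamily genes described here are Tnfrsf9, Tnfrsf4, Tnfrsf18, Tnfrsf1a, Fas, Tnfrsf21, Tnfrsf1b, Tnfrsf14, Ltbr and Tnfrsf26, 10 of the 24062 gene symbols in the deposited count tables. They were chosen by symbol, with earlier results of these data known. All 10 passed the filter on low counts that left 13155 genes for testing, as did 12 of 18 other receptors listed. Marrow cells of C57BL/6J mice, from femur and tibia, were grown with GM-CSF at 20 ng/ml on a soft substrate of 2 kPa (low tension) or a stiff substrate of 50 kPa (high tension), with fresh cytokine on days 3, 6 and 10, and polyA RNA of 3 samples per stiffness was sequenced. The labels give no mutation, age or sex of the mice, and the cytokine was the same in all samples. Dendritic cells are named in the titles, with no sort described, and each value averages over the cell types of a whole culture, in which fewer cells of a type and less RNA per cell cannot be told apart. Nothing in the labels says that the replicates came from separate mice or cultures, so a p-value here is set by the sample-to-sample spread, which may be technical.

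TNF receptors are transmembrane proteins with cysteine-rich extracellular repeats that bind trimeric ligands of the TNF family. Some carry an intracellular death domain, which recruits TRADD or FADD and can lead to caspase activation, and others bind TRAF adaptors, which act on NF-kB and MAP kinases. On dendritic cells and macrophages these receptors are known for control of maturation, survival and the response to TNF, lymphotoxin and signals from T cells.

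Libraries held 33.8 M to 36.3 M counts. Levels are normalised CPM (TMM-scaled library sizes), and log2 fold changes are 50 kPa over 2 kPa with standard errors. Before any result, the closest pair was high tension replicates 1 and 2, whose counts gave a chi-square per degree of freedom of 6.71. Every other pair gave 122 or more. The first principal component placed low tension replicate 1 and, of the stiff cultures, replicate 3 between the remaining libraries. Itgax, of the dendritic cell markers, was at 299 to 2958 CPM and Csf1r, of the macrophage markers, at 625 to 908 CPM. These genes do not stand for their lists, whose members differed in direction. Of the dendritic cell markers 5 lay above and 4 below 0 in log2 fold change, and of the macrophage markers 8 and 2. Summed marker levels did not overlap between the stiffnesses for several cell types, B cells and mature dendritic cells (both below) among them. Fibroblast and stromal markers were low, at 7.19 to 27.5 CPM at 2 kPa and 3.11 to 5.24 CPM at 50 kPa (0 of 8 called by edgeR, 4 lower by DESeq2). Sums of T and NK cell markers and of osteoclast markers overlapped. Dendritic cell markers summed to 5588 to 11597 CPM at 2 kPa and 14704 to 22906 CPM at 50 kPa (0 of 9 called by edgeR, 4 higher and 3 lower by DESeq2). That sum does not show the typical gene of the list, as the median log2 fold change was 0.16. Macrophage markers summed to 2029 to 3953 CPM at 2 kPa and 5220 to 6024 CPM at 50 kPa (0 of 10 by edgeR, 4 higher by DESeq2). Neutrophil markers summed to 3635 to 7040 CPM at 2 kPa and 854 to 1493 CPM at 50 kPa (6 of 11 fell by edgeR), and basophil and mast cell markers to 289 to 701 and 155 to 186 CPM (0 of 8 by edgeR, 6 lower by DESeq2). Of 5 megakaryocyte markers 4 fell by edgeR, with sums that overlapped. Over all genes tested edgeR called 1.98% lower, and DESeq2 called 8.52% higher and 9.51% lower. No gene of these lists was at 0 in all libraries. The part of these cell types in the differences of Tnfrsf9, Tnfrsf21, Tnfrsf4 and Ltb was not tested.

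None of the 10 receptors passed the test between the stiffnesses (edgeR's quasi-likelihood test, Benjamini-Hochberg adjusted p under 0.05 over all genes tested), beside 3.45% of all genes tested. Tnfrsf9 and Tnfrsf21 stood higher and Tnfrsf4 lower at 50 kPa in all 3 libraries, with edgeR adjusted p-values of 0.0632, 0.0544 and 0.0795. The test gave 454 genes, 194 higher and 260 lower, or 77 and 257 with libraries scaled by total counts. Unadjusted edgeR p-values under 0.05 were found for 4 of the 10, and for 27.8% of all genes. DESeq2 called 3 of the 10 beside 18.0% of all genes: Tnfrsf9 and Tnfrsf21 higher (8.52% of all genes) and Tnfrsf4 lower (9.51%). Limma-voom called 0 of them, beside 3.27% of all genes, 1.47% higher and 1.79% lower. Groups that did not overlap were found in 3 of the 10 receptors, and in 34.1% of all genes tested. None of these counts sets the 10 receptors apart from that background. The median log2 fold change was -0.02 over the 10 and -0.03 over all genes tested, with 5 above 0 and 5 below.

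**Figure D1:**
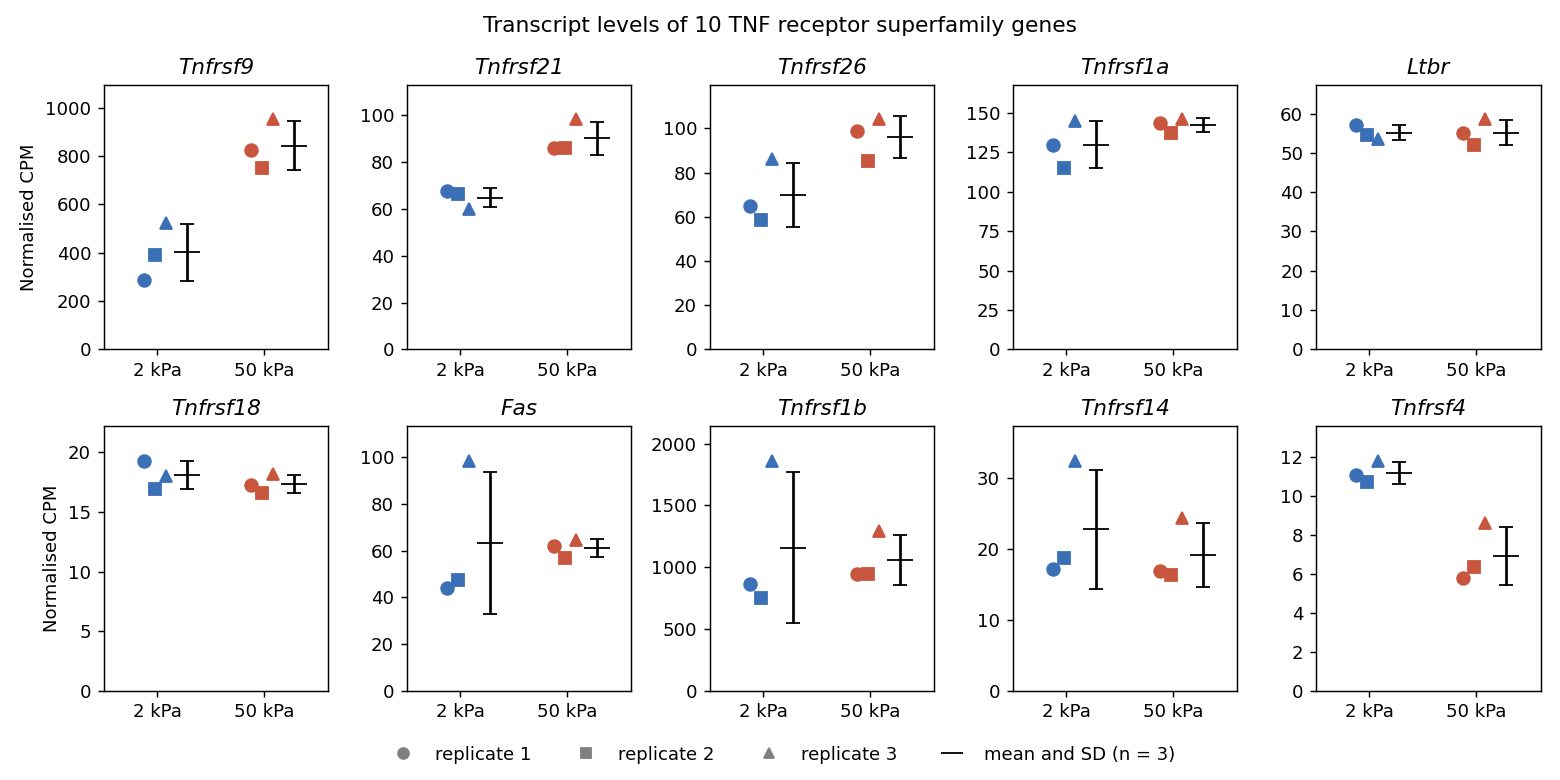
Normalised CPM (vertical axes, from 0) of the 10 receptors in each library at 2 kPa (blue) and 50 kPa (red), with symbols for replicates 1 to 3 and bars for the mean and SD of 3 libraries. Tnfrsf9 and Tnfrsf21 at 50 kPa lie above every 2 kPa library and Tnfrsf4 lies below, while Tnfrsf1b, Fas and Tnfrsf14 have their highest value in low tension replicate 3.

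Positions were taken from GENCODE vM21 on GRCm38, the build that mm10 in the submitters' processing notes names. Of 28 receptor genes of the superfamily listed here, 7 lie on chromosome 4 and 5 of these belong to the 10: Tnfrsf1b (145213463 to 145246870, minus strand), Tnfrsf9 (150914562 to 150946102, plus), Tnfrsf14 (154921933 to 154928563, minus), Tnfrsf4 (156013843 to 156016612, plus) and Tnfrsf18 (156026164 to 156028895, plus). Tnfrsf4 and Tnfrsf18 are adjacent, 9.6 kb apart with no coding gene between them. Ltbr (125306571 to 125313885, minus) and Tnfrsf1a (125349362 to 125362484, plus) are 35.5 kb apart on chromosome 6 with 1 coding gene between them. Tnfrsf26 (chromosome 7, 143607659 to 143628722, minus) lies 6.1 kb from Tnfrsf22. Tnfrsf21 is on chromosome 17 (43016555 to 43089189, plus) and Fas on chromosome 19 (34290666 to 34327772, plus). The log2 fold change was -0.70 for Tnfrsf4 and -0.06 for its neighbour Tnfrsf18.

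The promoter windows of 4 receptors are shown because these genes carry the patterns described below: Tnfrsf9 and Tnfrsf21 are the receptors with higher levels in every 50 kPa library, and Tnfrsf1b and Fas are among the 4 with their highest level in low tension replicate 3. The windows of the other two of those, Tnfrsf14 and Tnfrsf4, hold no match to any motif searched and are not shown. Each window runs from 250 bases before to 50 bases after the RefSeq start (GRCm38.p6, 5′ to 3′ on the gene's strand) and capitals mark matches, on either strand, to the AP-1, TEAD, PU.1, STAT, GC box, TATA or NF-kB motifs described after the sequences. The windows are chr4:150919905-150920204 (plus strand) for Tnfrsf9, chr17:43016305-43016604 (plus) for Tnfrsf21, chr4:145246821-145247120 (minus) for Tnfrsf1b and chr19:34290409-34290708 (plus) for Fas.
Tnfrsf9: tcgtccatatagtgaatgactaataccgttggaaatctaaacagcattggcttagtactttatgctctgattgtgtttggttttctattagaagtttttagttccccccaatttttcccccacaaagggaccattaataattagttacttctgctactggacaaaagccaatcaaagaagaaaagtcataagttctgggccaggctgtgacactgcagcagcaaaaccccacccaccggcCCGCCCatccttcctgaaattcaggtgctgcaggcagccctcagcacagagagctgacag
Tnfrsf21: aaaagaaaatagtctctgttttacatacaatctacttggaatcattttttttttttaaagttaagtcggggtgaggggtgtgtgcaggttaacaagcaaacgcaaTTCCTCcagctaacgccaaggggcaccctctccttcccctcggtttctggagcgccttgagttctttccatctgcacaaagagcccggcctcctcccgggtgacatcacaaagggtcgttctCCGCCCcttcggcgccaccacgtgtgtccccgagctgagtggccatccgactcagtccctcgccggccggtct
Tnfrsf1b: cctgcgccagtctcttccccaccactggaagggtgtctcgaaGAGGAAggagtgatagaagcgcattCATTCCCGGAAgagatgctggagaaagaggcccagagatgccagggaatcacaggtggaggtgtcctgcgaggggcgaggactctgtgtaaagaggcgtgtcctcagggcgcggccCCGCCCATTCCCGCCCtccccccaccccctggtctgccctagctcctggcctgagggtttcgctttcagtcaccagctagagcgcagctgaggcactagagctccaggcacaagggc
Fas: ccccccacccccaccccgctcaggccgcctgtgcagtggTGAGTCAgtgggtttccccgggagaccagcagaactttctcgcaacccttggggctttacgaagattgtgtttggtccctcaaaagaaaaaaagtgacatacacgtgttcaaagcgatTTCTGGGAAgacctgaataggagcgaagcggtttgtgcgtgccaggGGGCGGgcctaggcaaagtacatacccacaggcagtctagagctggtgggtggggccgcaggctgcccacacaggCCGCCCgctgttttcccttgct
RefSeq windows were found for 9 of the 10 receptors, and Tnfrsf9 has a further window that was not used. The Tnfrsf9 window holds a GC box 10 bases before the start and no match to the other motifs. That of Tnfrsf21 holds a PU.1 match 145 bases and a GC box 23 bases before the start. In Tnfrsf1b a TEAD match and a STAT match overlap, starting 183 and 181 bases before the start, and a second TEAD match lies between GC boxes and shares a base with each. In Fas an AP-1 match begins 211 bases and a STAT match 93 bases before the start. The STAT motif, spelled TTCNNNGAA, was found in 4 of the 9 windows and in 8.3% of 32851 RefSeq windows of this length. The PU.1 motif, searched as GAGGAA, was found in 4 of the 9 and in 28.3% of all. The GC box, with the letters GGGCGG, was found in 5 and in 35.7%. AP-1 was searched as TGANTCA, with a match in 1 of the 9 and in 7.8% of all. TEAD was searched as GGAATG, with matches in 1 and in 14.7%. The TATA motif, TATAAA, was found in 0 of the 9 and in 13.6% of all, and the NF-kB motif in 0 and in 4.5%. A match describes these letters and shows no binding.

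Among the receptors known for co-stimulation, Tnfrsf9 was the more abundant by far and stood higher at 50 kPa, Tnfrsf4 stood lower and Tnfrsf18 was level. Tnfrsf9 encodes CD137, an inducible receptor of T cells that myeloid cells also make. It was at 289, 392 and 523 CPM at 2 kPa and at 824, 753 and 952 CPM at 50 kPa. The lowest 50 kPa library stood above the highest 2 kPa library. Means were 401 ± 117 and 843 ± 101 CPM (SD, n = 3), 2.10-fold higher at 50 kPa (log2 1.07 ± 0.24, edgeR adjusted p = 0.0632), and the log2 fold change was 0.88 to 1.31 with any 1 library left out. Over the alternatives the adjusted p of edgeR, DESeq2 or limma-voom ranged from 0.000881 to 0.237.

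Tnfrsf4 encodes OX40, a receptor of activated T cells. Its levels were 11.05, 10.7 and 11.8 CPM at 2 kPa and 5.79, 6.33 and 8.59 CPM at 50 kPa, from 186 to 446 counts per library. All 3 libraries at 50 kPa were below those at 2 kPa, with high tension replicate 3 nearest to them. The log2 difference was -0.70 ± 0.18 (edgeR adjusted p = 0.0795, from 0.00826 to 0.292 over the alternatives). With any 1 library left out it ran from -0.88, without high tension replicate 3, to -0.57, without high tension replicate 1. Markers of T cells differed in level. Cd3d, Cd3e and Cd3g, the signalling chains of the T cell receptor, were each at 0.0622 to 2.54 CPM. Foxp3, the factor of regulatory T cells, had 2 to 8 counts in 5 libraries and 47 in high tension replicate 2. Of 16 T and NK cell markers 12 were tested, with 6 above and 6 below 0. By edgeR Cd4 rose (log2 2.93 ± 0.32, adjusted p = 0.0286) and 0 fell, 2 were higher and 3 lower at an unadjusted p under 0.05, and DESeq2 called Cd4 higher and Nkg7 lower. Their summed level was 170 to 340.5 CPM at 2 kPa and 323 to 372 CPM at 50 kPa, most of it Il7r, which stood at 152 to 361 CPM over the 6 libraries. No marker of the list was at 0 in all libraries. The part of T cells in the level of Tnfrsf4 was not tested.

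Tnfrsf18 encodes GITR, also known from regulatory and activated T cells. It stood at 19.3, 16.9 and 18.1 CPM at 2 kPa and at 17.3, 16.6 and 18.2 CPM at 50 kPa. The groups overlapped throughout, and the log2 difference was -0.06, with a 95% interval of -0.30 to 0.18. Exons of this gene overlap those of Gm16008 on the opposite strand over 414 bases. Reads of the pair could be mixed unless counting used the strand, which a directional kit would allow.

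Of the receptors with a death domain, Tnfrsf21 stood 1.39-fold higher at 50 kPa, while Tnfrsf1a and Fas overlapped between the groups. Tnfrsf21 encodes death receptor 6. Its levels were 67.8, 66.3 and 60.1 CPM at 2 kPa and 85.9, 86.2 and 98.2 CPM at 50 kPa. The groups lay apart, and the spread within each was small beside the gap between them. The log2 difference was 0.48 ± 0.10 (edgeR adjusted p = 0.0544, from 0.000221 to 0.21 over the alternatives), just short of the threshold with TMM scaling and past it with RLE scaling (edgeR adjusted p = 0.048). It was 0.42 to 0.53 with any 1 library left out.

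Tnfrsf1a, the widely expressed receptor TNFR1, was at 129.6, 115 and 145 CPM at 2 kPa and at 144, 137 and 146 CPM at 50 kPa. Low tension replicate 3 lay within the 50 kPa range, and the log2 difference was 0.13 (95% interval -0.14 to 0.40). Fas, the receptor of Fas ligand, was at 44.1, 47.2 and 98.5 CPM at 2 kPa and at 62.004, 57.02 and 64.3 CPM at 50 kPa. Low tension replicate 3 stood above all other libraries and low tension replicates 1 and 2 below them. The log2 difference was -0.05 (95% interval -0.81 to 0.71) with all libraries, and 0.42 ± 0.09 without low tension replicate 3 (edgeR adjusted p = 0.071, and 0.071 to 0.991 over the alternatives).

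Tnfrsf1b, Tnfrsf14 and Ltbr signal through TRAF adaptors and have no death domain. Tnfrsf1b encodes TNFR2, the TNF receptor of leukocytes, and was at 862, 751 and 1863 CPM at 2 kPa and at 943, 945 and 1290 CPM at 50 kPa. Low tension replicate 3 was highest and high tension replicate 3 next. The log2 difference changed sign with that library, from -0.13 (95% interval -1.04 to 0.78) with all libraries to 0.39 ± 0.20 without low tension replicate 3 (edgeR adjusted p = 0.235, and 0.235 to 0.972 over the alternatives). Tnfrsf14 encodes HVEM, the receptor of LIGHT and a ligand of the inhibitory receptor BTLA. It was at 17.1, 18.8 and 32.5 CPM at 2 kPa and at 16.9, 16.3 and 24.3 CPM at 50 kPa, with replicate 3 highest in both groups. Its log2 difference was -0.25 (95% interval -0.95 to 0.45), and 0.10 without low tension replicate 3. Ltbr, the lymphotoxin beta receptor, had the smallest difference of the 10. It stood at 57.2, 54.7 and 53.6 CPM at 2 kPa and at 54.9, 52.01 and 58.5 CPM at 50 kPa. Means were 55.1 ± 1.85 and 55.2 ± 3.25 CPM (SD, n = 3), and the 95% interval of the log2 difference was -0.20 to 0.20.

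Tnfrsf26 belongs to a cluster of mouse receptor genes with Tnfrsf22 and Tnfrsf23, which encode decoy receptors of TRAIL. It was at 64.7, 58.5 and 86.1 CPM at 2 kPa and at 98.9, 85.4 and 104 CPM at 50 kPa, where high tension replicate 2 lay just below low tension replicate 3. The log2 difference was 0.46 ± 0.17 (edgeR adjusted p = 0.142). With any 1 library left out it ran from 0.35, without low tension replicate 2, to 0.64, without low tension replicate 3. Of its transcript sequences of 50 bases, 98.1% occur in transcripts of no other gene, and the rest in E230032D23Rik, which overlaps its exons on the opposite strand over 107 bases. Tnfrsf23 stood at 63.8, 72.2 and 91.6 CPM at 2 kPa and at 73.05, 74.01 and 108 CPM at 50 kPa, with a log2 difference of 0.17 ± 0.21 and overlapping groups. Tnfrsf22 was at 4.35 to 6.88 CPM and at 5.85 to 7.49 CPM, and the counts of both are uncertain because 27.4% of the Tnfrsf22 and 19.3% of the Tnfrsf23 sequences are shared with other genes, each other among them.

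**Figure D2:**
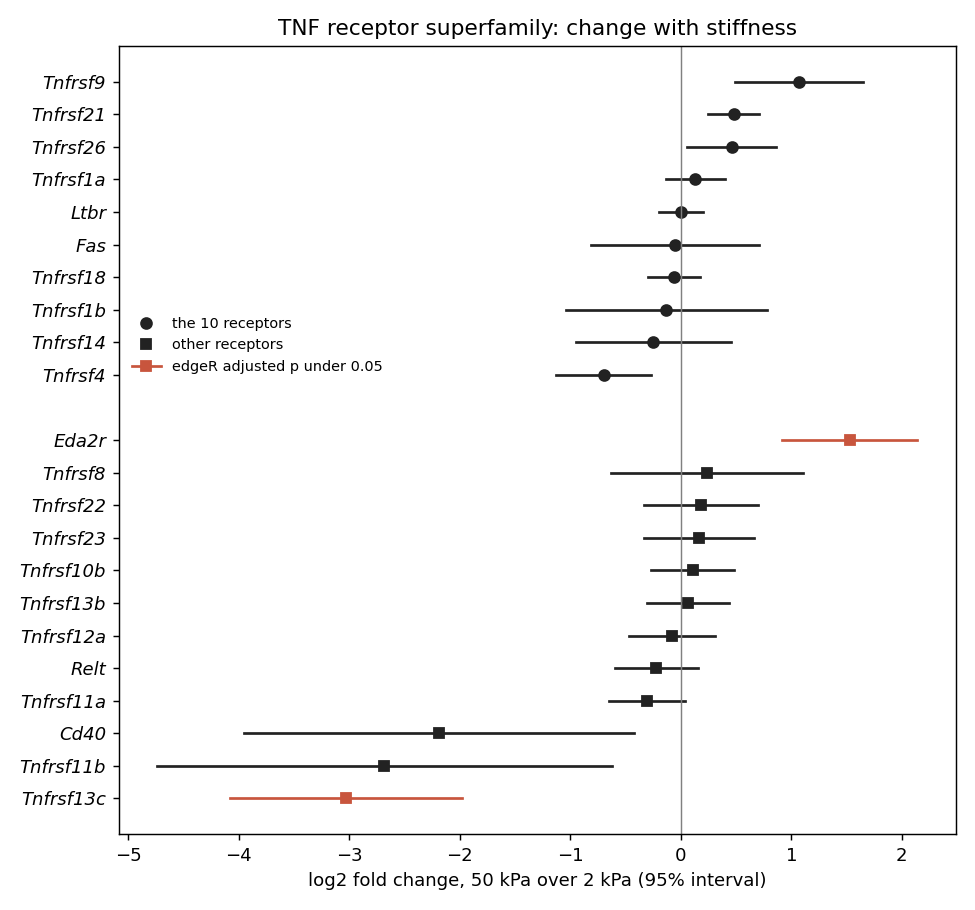
Log2 fold change of 50 kPa over 2 kPa (horizontal axis) with 95% intervals for the 10 receptors (circles) and 12 other tested receptors (squares), red where the edgeR adjusted p is under 0.05. The intervals of Tnfrsf9, Tnfrsf21, Tnfrsf26 and Tnfrsf4 exclude 0 without passing the adjusted threshold, as do those of Cd40 and Tnfrsf11b, and only Eda2r and Tnfrsf13c are red.

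Levels can be compared between genes per kilobase of exon. At 2 kPa the order ran from Tnfrsf1b (303 ± 160 CPM per kb) and Tnfrsf9 (147 ± 43.0) through Tnfrsf1a (50.1 ± 5.80) to Tnfrsf4 (8.19 ± 0.414), the lowest. At 50 kPa Tnfrsf9 (309.6 ± 37.0 CPM per kb) was first and Tnfrsf1b (277 ± 52.3) second, followed by Tnfrsf1a (54.9 ± 1.72). The ranges of the first 2 overlapped, but Tnfrsf9 was above Tnfrsf1b in each 50 kPa library (303, 277 and 350 against 247, 248 and 338). At 2 kPa Tnfrsf1b and Tnfrsf9 did not overlap (197 to 488 and 106 to 192 CPM per kb). The levels of Fas, Ltbr and Tnfrsf26 overlapped there (18.2 to 47.8 CPM per kb), as did those of Tnfrsf1a and Fas through low tension replicate 3, those of Tnfrsf14 with Tnfrsf26 and Fas, and those of Tnfrsf14 with Tnfrsf21 and Tnfrsf18 (11.1 to 22.6). At 50 kPa overlaps were found between Tnfrsf26 and Fas (26.5 to 32.3 CPM per kb), between Ltbr and Tnfrsf21 (20.9 to 24.9) and between Tnfrsf14 and Tnfrsf18 (10.9 to 16.9). These overlaps are of ranges over libraries. Within each 2 kPa library Tnfrsf1a stood above Fas, Fas above Tnfrsf26 and Tnfrsf26 above Tnfrsf14. Within each 50 kPa library Tnfrsf9 stood above Tnfrsf1b, Ltbr above Tnfrsf21 and Tnfrsf14 above Tnfrsf18. Tnfrsf4 was the lowest of the 10 in both groups, at 4.24 to 6.30 CPM per kb at 50 kPa.

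For the 3 receptors of smallest p, the closest genes were sought by root mean square difference of centred log2 CPM over the 6 libraries. The search covered 9739 other genes with a mean of at least 5 CPM, without predicted genes, pseudogenes and small RNAs. It picks genes for their likeness, so a close match is no test of a link. Tnfrsf9 was closest to Pla2g7 (0.06), which encodes a secreted phospholipase that inactivates platelet-activating factor, and then to Layn (0.13), a hyaluronan receptor, and Best1 (0.17), a chloride channel. Pla2g7 was at 444, 596 and 802 CPM at 2 kPa and at 1162, 1056 and 1376 CPM at 50 kPa. Its order of libraries is that of Tnfrsf9, the likeness for which it was picked. Tnfrsf4 was closest to Rgs14 (0.06), a regulator of G protein signalling, then to Sh2d3c (0.11), an adaptor, and to Tpm3 (0.11), a tropomyosin. Rgs14 and Sh2d3c passed the test, lower by -0.80 ± 0.15 and -0.72 ± 0.13 on the log2 scale (edgeR adjusted p = 0.0481 for each). Tnfrsf21 was closest to Ntpcr, Usp20 and Maml2, each at 0.06, with log2 differences of 0.41, 0.44 and 0.51 that did not pass the test.

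In the rest of the superfamily 18 further receptors were listed and 12 were tested, of which 1 rose (1.47% of all genes did) and 1 fell (1.98% of all genes did) by edgeR. DESeq2 called Eda2r higher (8.52% of all genes were) and Tnfrsf13c, Cd40 and Tnfrsf11b lower (9.51% of all genes were). Eda2r, the receptor of an ectodysplasin isoform, rose from 0.699, 0.983 and 1.20 CPM to 2.92, 2.81 and 2.60 CPM (log2 1.53 ± 0.25, edgeR adjusted p = 0.0392), from 27 to 94 counts per library. Tnfrsf13c, the BAFF receptor of B cells, fell from 3.57, 6.91 and 5.17 CPM to 0.653, 0.328 and 0.926 CPM (log2 -3.03 ± 0.43, edgeR adjusted p = 0.0349). B cell markers moved with it: of 8 tested, 6 fell and 0 rose, and the summed level of all 9 was 86.5 to 137 CPM at 2 kPa and 25.02 to 33.2 CPM at 50 kPa. Their part in the fall of Tnfrsf13c was not tested. Each call was lost with some library left out. Tnfrsf13c was called in 2 of 6 such fits and missed without low tension replicate 2 or 3 and without high tension replicate 1 or 2 (edgeR adjusted p = 0.0562 to 0.187). Eda2r was called in 1 of 6, without low tension replicate 1 (edgeR adjusted p = 0.0482). It was missed without any other library, each in turn (edgeR adjusted p = 0.0546 to 0.196), and with scaling by total counts (edgeR adjusted p = 0.0509).

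Cd40, the receptor of T cell help on dendritic cells and B cells, was at 50.2, 30.5 and 205.5 CPM at 2 kPa and at 17.9, 16.6 and 28.3 CPM at 50 kPa. Low tension replicate 3 was far above the rest, the groups did not overlap, and the log2 difference was -2.19 ± 0.73 (edgeR adjusted p = 0.124), or -0.94 without that library. DESeq2 called it lower (adjusted p = 0.0101). Markers of mature dendritic cells had their highest summed level in the same library: it was 2985 to 6502 CPM at 2 kPa and 1897 to 2841 CPM at 50 kPa, with 8 of 10 genes below 0 in log2 fold change, 0 called by edgeR (6 lower at an unadjusted p under 0.05) and 6 called lower by DESeq2. Of 13155 genes tested 6994 lay below 0, 14.8% were lower at an unadjusted edgeR p under 0.05 and 9.51% were called lower by DESeq2. The part of mature dendritic cells in the level of Cd40 was not tested. Tnfrsf11a, which encodes RANK, stood at 44.0, 47.8 and 57.4 CPM and at 36.3, 38.2 and 46.1 CPM (log2 -0.31 ± 0.14, edgeR adjusted p = 0.219). Tnfrsf11b, the decoy osteoprotegerin, had 57, 128 and 90 counts at 2 kPa and 3, 3 and 32 at 50 kPa (log2 -2.68 ± 0.85, edgeR adjusted p = 0.114), and was called without high tension replicate 3 (log2 -4.66, edgeR adjusted p = 0.0337, and 0.019 to 0.321 over the alternatives).

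Among the ligands only Ltb passed the test. Of 18 ligand genes 13 were tested, and by edgeR 0 rose and 1 fell (1.47% and 1.98% of all genes). Of the 13, 10 lay below 0, beside 6994 of 13155 genes tested. The median log2 fold change was -0.66, beside -0.03 over all genes. DESeq2 called Tnfsf8 higher and Ltb and Cd70 lower, 3 of 13, beside 8.52% of all genes higher and 9.51% lower. Ltb, the membrane-bound lymphotoxin beta chain, fell from 21.9, 25.9 and 25.3 CPM to 8.03, 7.43 and 10.6 CPM, 2.81-fold lower (log2 -1.49 ± 0.16, edgeR adjusted p = 0.0286). It was called in 2 of 6 fits with 1 library left out and missed without low tension replicate 2 or 3 and without high tension replicate 1 or 2 (edgeR adjusted p = 0.0546 to 0.157). Its receptor gene Ltbr was level in these same libraries. Tnfsf9, the ligand of CD137, was at 16.9, 15.2 and 30.5 CPM at 2 kPa and at 11.6, 12.5 and 13.6 CPM at 50 kPa, so that ligand and receptor lay on opposite sides of 0 (log2 -0.73 ± 0.28 for Tnfsf9, edgeR adjusted p = 0.154; 1.07 ± 0.24 for Tnfrsf9). Tnfsf4, the OX40 ligand, was at 15.8, 22.7 and 32.1 CPM and at 14.4, 15.3 and 17.8 CPM (log2 -0.57 ± 0.26, edgeR adjusted p = 0.208), with the groups overlapping through low tension replicate 1.

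**Figure D3:**
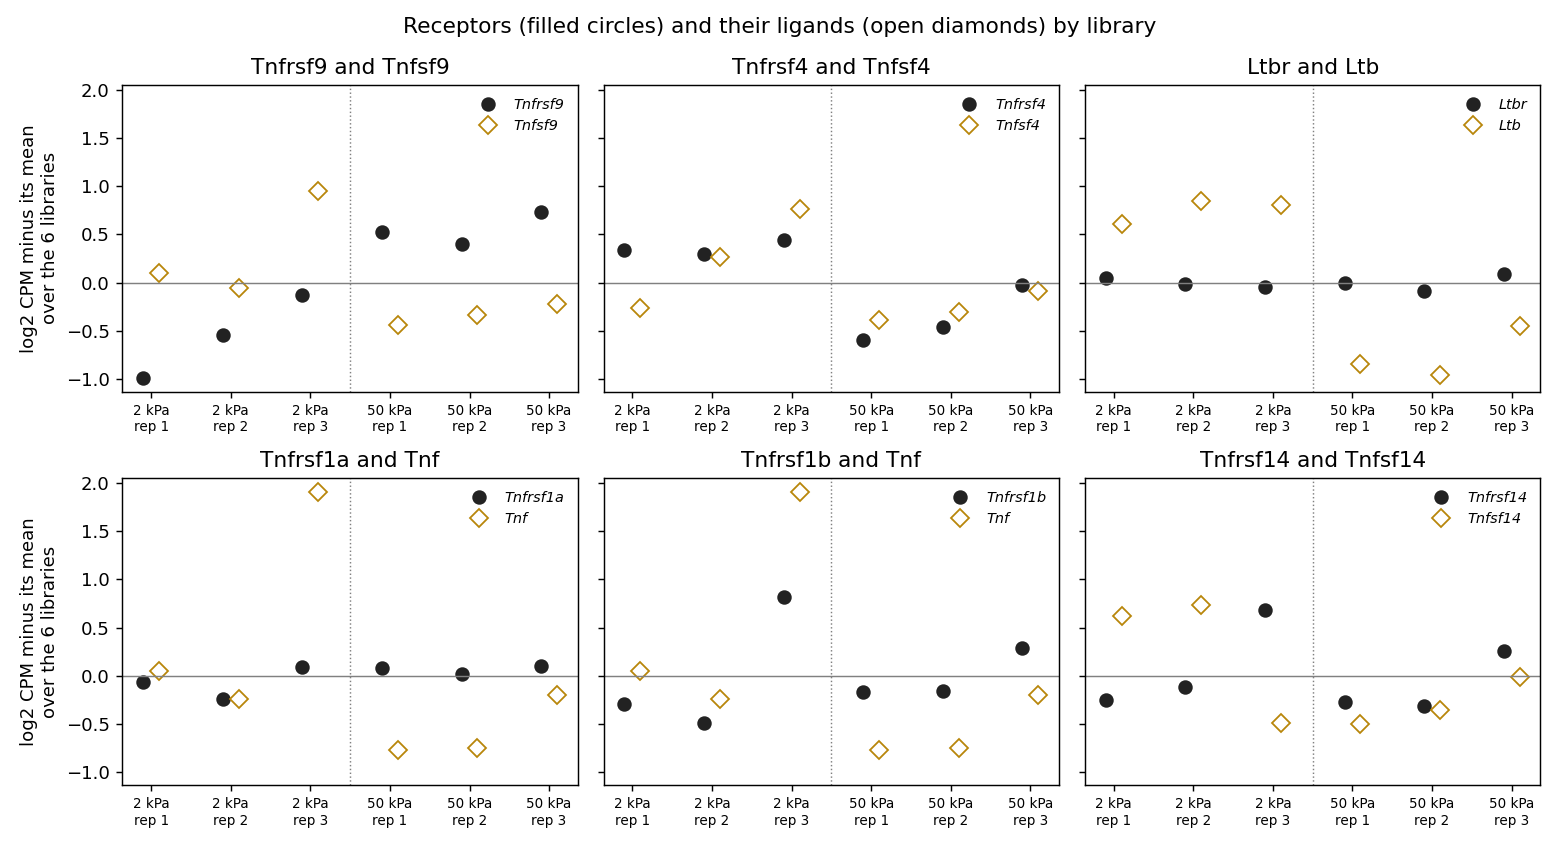
Log2 CPM minus its mean over the 6 libraries (vertical axis) for 6 pairs of receptor (filled circles) and ligand (open diamonds) in each library (horizontal axis, 2 kPa left and 50 kPa right of the dotted line). Ltb lies lower in every 50 kPa library while Ltbr stays near 0, Tnfrsf9 lies below 0 at 2 kPa and above 0 at 50 kPa while Tnfsf9 is below 0 at 50 kPa and in low tension replicate 2, and Tnf is highest in low tension replicate 3.

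Tnf, the ligand of TNFR1 and TNFR2, was at 174, 142 and 630.4 CPM at 2 kPa and at 99.1, 100.4 and 147 CPM at 50 kPa (log2 -1.45 ± 0.59, edgeR adjusted p = 0.175). Low tension replicate 3 stood apart, and without it the difference was -0.46. Lta, the soluble lymphotoxin chain, was at 7.25, 5.06 and 15.1 CPM and at 6.56, 7.58 and 7.32 CPM, again highest in that library. Its log2 difference was -0.35 with all libraries and 0.22 without low tension replicate 3. Tnfsf14, which encodes LIGHT, showed another order, at 19.4, 21.0 and 9.01 CPM at 2 kPa and 8.93, 9.91 and 12.6 CPM at 50 kPa (log2 -0.66 ± 0.33, edgeR adjusted p = 0.246). Fasl and Tnfsf18, the ligands of Fas and GITR, had 0 to 3 and 4 to 10 counts per library and were not tested. Tnfsf8, the CD30 ligand, was at 20.2, 7.24 and 25.02 CPM and at 44.9, 45.9 and 42.9 CPM, with groups that did not overlap (log2 1.35 ± 0.42, edgeR adjusted p = 0.109). Cd70, the ligand of CD27, was at 1.151 to 4.48 CPM at 2 kPa and 0.328 to 0.897 CPM at 50 kPa (log2 -2.16 ± 0.68, edgeR adjusted p = 0.113). Without low tension replicate 3 the log2 difference was -1.32 for Cd70, -0.35 for Tnfsf9 and -0.28 for Tnfsf4.

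Downstream of the receptors, 37 genes of adaptors and effectors were tested and 0 rose or fell by edgeR (Map3k5 was called lower with scaling by total counts). Of these 30 lay below 0, beside 6994 of 13155 genes tested, and the median log2 fold change was -0.29 beside -0.03 over all genes. At an unadjusted edgeR p under 0.05, 7 were lower and 0 higher (14.8% of all genes were lower and 13.0% higher). DESeq2 called 4, Tradd, Bid, Birc2 and Map3k5, all lower (9.51% of all genes). The smallest p-values belonged to Map3k5, the kinase ASK1, at 29.8, 30.3 and 49.98 CPM and at 12.7, 13.8 and 21.4 CPM (log2 -1.20 ± 0.29, edgeR adjusted p = 0.0718), to Birc2, the ubiquitin ligase cIAP1 (-0.67 ± 0.20, edgeR adjusted p = 0.104), and to Tradd, the death domain adaptor of TNFR1 (-0.28 ± 0.09, edgeR adjusted p = 0.112). The groups of these 3 genes, picked by smallest p, did not overlap. The same was found for 8 of the 37, all lower, and for 34.1% of all genes tested, 16.9% lower. All 11 genes of NF-kB subunits and inhibitors lay below 0, beside 6994 of 13155 genes tested, with a median of -0.58 and 0 called by edgeR. Of them 5 were lower at an unadjusted edgeR p under 0.05 (14.8% of all genes were), and DESeq2 called Nfkbid and Nfkbiz lower (9.51% of all genes). Nfkbiz, an atypical nuclear inhibitor, was at 49.2, 82.7 and 144 CPM and at 27.6, 26.0 and 46.03 CPM (log2 -1.47 ± 0.43, edgeR adjusted p = 0.0983). Nfkbid stood at -0.58 ± 0.16 and Nfkbib at -0.70 ± 0.26 on the log2 scale. All 11 NF-kB genes were highest in low tension replicate 3, so their signs are not independent of each other. Without that library 8 of them lay below 0, and Nfkbib stood at -0.38 and Nfkbiz at -0.99.

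Low tension replicate 3 was the highest of the 6 libraries in 4 of the 10 receptors (Tnfrsf1b, Fas, Tnfrsf14 and Tnfrsf4), in 7 of 13 ligands, in 26 of 37 adaptors and effectors and in 11 of 11 NF-kB genes. Over all genes tested it was the highest in 22.4%. Tnfaip3, the NF-kB feedback inhibitor A20, was at 498 CPM there and at 136 to 180 CPM in the other 5 libraries, and Cflar, which encodes the caspase inhibitor FLIP, at 608 against 176 to 273 CPM. Both were picked after their values were seen. Without this library 26 of 37 adaptors and effectors and 8 of 11 NF-kB genes lay below 0, with medians of -0.10 and -0.36. Of the 10 receptors 7 then lay above 0, with a median of 0.31. Over all genes tested without it, 6929 of 13351 lay below 0, with a median of -0.02.

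**Figure D4:**
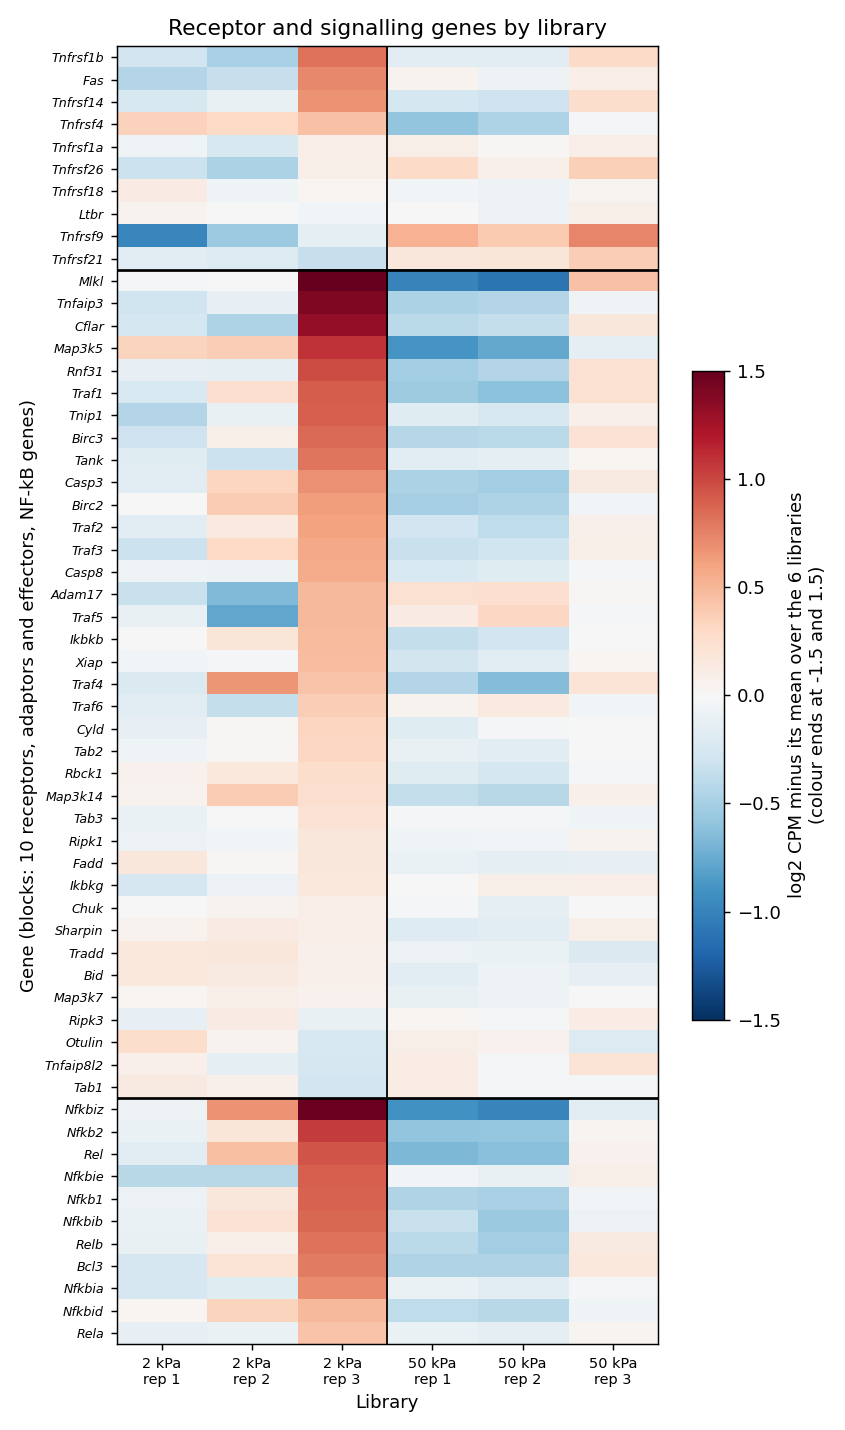
Log2 CPM minus its mean over the 6 libraries (colour, ending at -1.5 and 1.5) for the 10 receptors, 37 adaptors and effectors and 11 NF-kB genes (rows, in blocks from the top, each sorted by low tension replicate 3) in each library (columns). Red marks a level above the gene's mean and blue one below it. The column of low tension replicate 3 is red in all 11 NF-kB genes, while the row of Tnfrsf9 is blue at 2 kPa and red at 50 kPa.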

How the data were processed

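Each library came as a deposited list of gene symbols with whole-number counts. FastQC 0.11.2, TopHat2 2.0.11, HTSeq 0.6.1p2, edgeR 3.16.5 and 3.8.6 appear in the submitters' processing notes with no role or order, as do the builds mm10 and hg19. Annotation and strand setting: not given in the sources used here.

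Groups follow the tension named in the titles and the stiffness in the treatment label. Counts were tested in R 4.3.3 with edgeR 4.0.16 (filterByExpr with minimum count 10 and total 15, TMM scaling, glmQLFit and glmQLFTest on stiffness), with Benjamini-Hochberg adjustment over 13155 genes. The standard error is the log2 fold change divided by the root of F, and 95% intervals use the t quantile of the fit. The alternatives used other scalings, filters, DESeq2 1.42.0, limma-voom 3.58.1, a replicate block, libraries left out and a sum of high tension replicates 1 and 2. The code was tested on simulated data. The receptors and gene lists were chosen with earlier results of these data known. Named are all 10 receptors, the called genes and 3 smallest p-values of each list, and 10 fixed ligands and receptors. Exon lengths are unions of GENCODE vM21 exons. Python 3.11.15 with matplotlib 3.10.9 drew the plots.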

Additional observations from a re-analysis of the deposited data

How the results depend on the processing

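Counts of genes past the threshold (454 in all, 194 higher and 260 lower) were 39, 20 and 19 with at least 5 CPM in 3 libraries, 2372, 1121 and 1251 by DESeq2, and 0, 0 and 0 with high tension replicates 1 and 2 summed. With total counts as the scaling 77 were higher, and the median over all genes tested moved from -0.03 to -0.16. With 1 library left out the counts were 0 to 511 in all, 0 to 255 higher and 0 to 256 lower. Leaving out low tension replicate 2 gave 1 higher and 0 lower, and leaving out low tension replicate 3 gave 3 and 0. Leaving out high tension replicate 1, or 2, gave 0 and 0 (2080 and 2062 genes at an unadjusted edgeR p under 0.05, 2138 with the pair summed). Leaving out high tension replicate 3 gave 118 higher. Of the 10 receptors, RLE scaling called 1 (Tnfrsf21, higher) and DESeq2 3 (2 higher, 1 lower), and 0 were called with any 1 library left out. No label ties a replicate number to a mouse, batch or day, so pairs were not assumed. Deviations of same-numbered libraries correlated at 0.54, -0.11 and 0.49, and 3 of 6 libraries were closest to their own number. With the replicate block 776 genes were called, 522 of them lower, and 1 of the 10 receptors (Tnfrsf9, higher, edgeR adjusted p = 0.0452). The block called 3 ligands, 3 adaptors and effectors, 3 NF-kB genes and 3 mature dendritic cell markers lower, among them Cd70, Map3k5, Birc2 and Nfkbiz (edgeR adjusted p = 0.0372, 0.0328, 0.0433 and 0.0414).

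The sign of the log2 fold change turned for Fas, Ltbr, Tnfrsf1b, Tnfrsf14 and Lta. Fas stood at 0.0483 by limma-voom and 0.0507 with the replicate block, and at -0.25 to 0.42 with 1 library left out. Ltbr stood at -0.14 with total counts, -0.0162 with at least 5 CPM, -0.0010 by limma-voom and -0.0011 with the replicate block, and at -0.0382 to 0.0566 with 1 library left out. Tnfrsf1b ranged from -0.37 to 0.39, Tnfrsf14 from -0.45 to 0.10 and Lta from -0.65 to 0.22 with 1 library left out, each above 0 without low tension replicate 3. The cause was not tested. Tnfrsf9, Tnfrsf21, Tnfrsf26 and Tnfrsf4 kept their signs under every alternative run. So did Tnfrsf1a (0.009 to 0.22) and Tnfrsf18 (-0.19 to -0.008), whose groups overlapped, so a kept sign does not set the former apart. Counts of 3 to 47 per library, as for Tnfrsf11b and Foxp3 at 50 kPa, limit what can be seen of the rarest transcripts.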
